A study of Homo sapiens with 6 samples.

Results

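Tail-to-tail pairs are neighbouring genes on opposite strands that run toward each other and share exon sequence. The shared part need not lie in the last exons. They were chosen from the exon positions and counts of the deposited tables: a plus gene and a minus gene sharing at least 1 bp of exon, neither with an exon opposite any further gene, the plus gene starting and ending before the minus gene, and at least 60 counts on the pair over all libraries. This gave 649 pairs with 1298 member genes, out of 2004 such isolated opposite-strand pairs in any orientation and 57209 genes in the tables, and a further 353 tail-to-tail pairs fell below the count minimum. The summed count was therefore used to choose the pairs, and it is given below as a description.

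The 6 RNA-seq libraries were made from MB157, a triple-negative breast cancer line of human origin that carried Cas9 according to the titles, while the series text describes the line as stably expressing SOX9. Cells received a control sgRNA in 3 libraries and a SOX9 sgRNA in the other 3, directed at a transcription factor related to SRY, in order to find genes that depend on SOX9. All were collected 4 days after transfection and sorted for the 50% with the highest sgRNA expression. Each group is thus a sorted population and not a clone, and edited and unedited cells were not told apart. Library totals ran from 776125 to 1018854 counts. The labels call the replicates technical, so p-values here measure the spread between libraries and not between independent cultures. SOX9 itself had 38, 52 and 44 counts in control libraries 1 to 3 and 37, 39 and 60 in the SOX9 sgRNA libraries (log2 fold change -0.22 with SE 0.26, edgeR adjusted p = 0.70). How far the gene was edited, and what became of its protein, was not tested here. Among the marker lists, 4 genes typical of the triple-negative line were summed. Their level was 294 to 347 CPM (a gene's count relative to the scaled library total) in control and 126 to 154 in SOX9 sgRNA libraries. VIM was the largest part, at a mean of 225 CPM in control and 72.9 in SOX9 sgRNA libraries, and has exons opposite 2 other genes. Of 3 receptor genes that the subtype is defined as lacking, ESR1 and PGR had 12 and 26 counts in all. ERBB2 had 1021, at a mean of 217 CPM in control and 205 in SOX9 sgRNA libraries. Summed epithelial markers ran from 1219 to 1303 CPM in control and from 1033 to 1258 in SOX9 sgRNA libraries. Single genes of that sum went different ways. From control to SOX9 sgRNA, mean CPM went from 318 to 190 for KRT19 and from 60.7 to 30.9 for KRT7. It went from 554 to 601 for KRT8 and from 98.5 to 131 for KRT5. Over all libraries, 4 leukocyte markers ran from 12.7 to 28.6 CPM with CD3E at 0. The 4 fibroblast and endothelial markers ran from 2.67 to 9.64 CPM with VWF at 0.

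Convergent genes can be transcribed into one another, because RNA polymerase II passes the end of the mature RNA before it stops. Cleavage and polyadenylation define that end, and the machinery recognises a hexamer, most often AATAAA, a short distance upstream of the cut. Where both mature RNAs contain the overlap, their last bases are complementary and can in principle pair with each other, which has been studied as a source of double-stranded RNA and of antisense control.

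The transcript ends show what such a pair is. They are the last 30 bases of the transcript that reached farthest 3′ in GENCODE 29 on GRCh38, written 5′ to 3′. The first 4 lines show the closest form of overlap, in which only the last bases are shared, and the capitals mark the shared part. EPHX1 and TMEM63A ended in 28 shared bases and CRB3 and DENND1C in 15, and each line is the reverse complement of its partner over that stretch.
EPHX1: gcTTTGATGATAAACGACTTTACTCTAAAA
TMEM63A: gcTTTTAGAGTAAAGTCGTTTATCATCAAA
CRB3: atataaaattagtagTGAGATGTAACAAAA
DENND1C: acacaccaataaagcTTTTGTTACATCTCA
On GRCh38 these windows lie at chr1:225845534-225845563, chr1:225845536-225845565, chr19:6467192-6467221 and chr19:6467207-6467236. The next 4 lines are ends of pairs whose counts changed and whose overlap is longer, and the capitals mark AATAAA. CCND1, LTO1, TBPL1 and IER3 hold it, at chr11:69654445-69654474, chr11:69653076-69653105, chr6:133990403-133990432 and chr6:30743199-30743228.
CCND1: aagtctagaAATAAAactggtaaaacccca
LTO1: cttcctaAATAAAaattacaagaattacat
TBPL1: ctaAATAAAtatggtcccaggattttaaaa
IER3: aacacaAATAAAattgatttactgtctgca
AATAAA and ATTAAA were searched on the strand of the transcript, and ATTAAA was counted where AATAAA was missing. Of 976 protein-coding members with an annotated end, 48.0% held AATAAA in these 30 bases and 13.0% held only ATTAAA, against 51.0% and 12.1% of all 19560 protein-coding genes. The other 292 members held them in 25.7% and 8.90%. Of 623 pairs with an end for both members, the ends overlapped on GRCh38 in 536. Of the same 623, 195 had a hexamer in both windows, 290 in 1 and 138 in neither, and EPHX1/TMEM63A is among the last. A match is a description of the letters and not evidence that the site is used.

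Counts within a pair were uneven. The pairs held 14.4% to 15.3% of each library's counts, and the member with more counts held 90.2% to 91.4% of them in each library. The plus gene had more counts in 334 pairs, the minus gene in 314, and 1 pair was even. The median share of the lower member was 14.1% (quartiles 5.45% and 29.1%): it was under 10% in 258 pairs, or 39.8% of them, at least 40% in 72 pairs, and 0 in 7. Per kilobase of exon, the median was 105 counts for the higher member and 12.9 for the lower, and the member with more counts also had more per kilobase in 585 of the 649 pairs. Counts on the pair ran from 60 to 63343 with a median of 373, and 247 pairs reached 600.

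**Figure D1:**
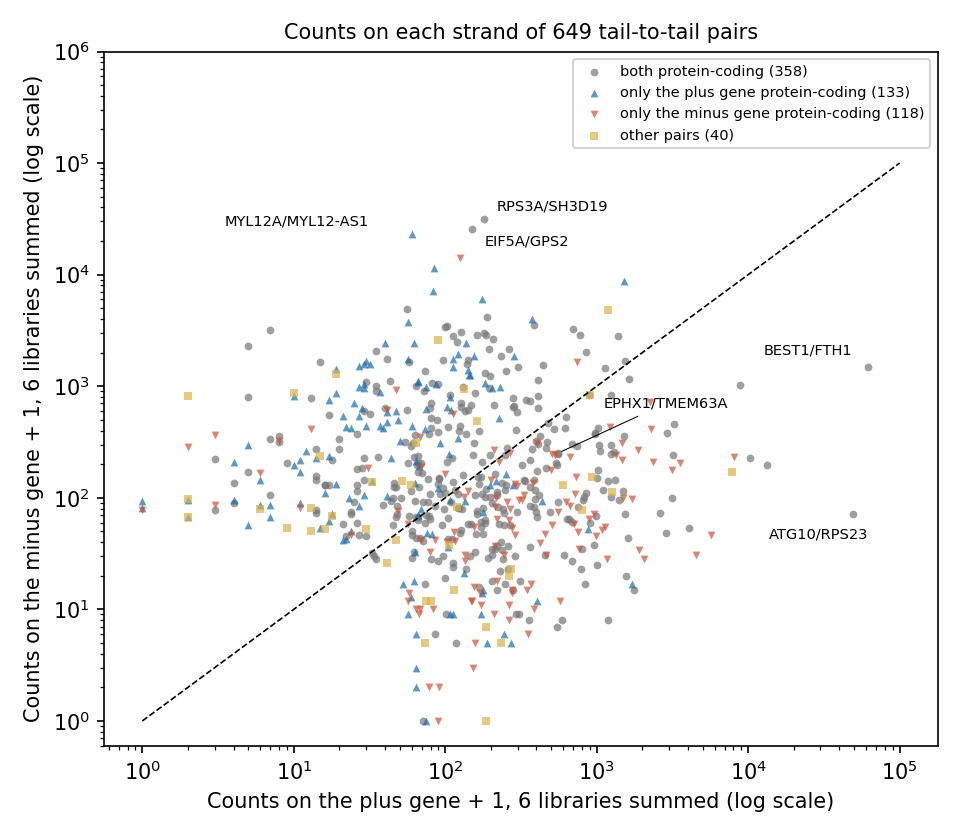
Each point is 1 of the 649 tail-to-tail pairs, with the counts of the plus gene and of the minus gene summed over 6 libraries plus 1 on log axes; the dashed line marks equal counts and symbols give the annotation of the members. Pairs lie on both sides of the line, 334 below it and 314 above, and BEST1/FTH1 and ATG10/RPS23 lie far to the right of it.

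In the pairs with most counts, the counts lay on the gene that faces a gene known to be abundant. BEST1, which encodes a chloride channel of the retinal pigment epithelium, had 9333, 9797 and 8823 counts in control and 10814, 9922 and 13164 in SOX9 sgRNA libraries. FTH1 opposite it, which encodes the heavy chain of the iron store ferritin and is expressed in nearly all cells, had 222, 234 and 233 against 241, 216 and 344. ATG10, an autophagy conjugating enzyme gene, had 8175, 9261 and 7577 counts against 7153, 7005 and 9802. RPS23 opposite it, which encodes a protein of the small ribosomal subunit, had 5, 6 and 22 against 16, 9 and 13. In both pairs the gene known for high expression had the low counts in every library. The same held for SH3D19, an adaptor gene, with 31364 counts in all against 179 on the ribosomal protein gene RPS3A, for GPS2, a subunit gene of the NCoR/SMRT corepressor, with 25858 against 149 on the translation factor gene EIF5A, for MYL12-AS1 with 23354 against 59 on the myosin light chain gene MYL12A, and for LRRC75A with 14198 against 124 on the snoRNA host gene SNHG29. These 6 pairs held 27.4% of the counts of all 649.

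The file headers give the strand setting of the counting, but no source used here says which read of this kit carries the strand of the RNA. Whether a count comes from the named gene or from the opposite strand, such as its partner, was not tested. Each value above and below, those of SOX9 and the markers included, is given under the name in the tables. A gene said to rise or fall is thus the name that holds the counts.

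Pairs of a protein-coding and another gene were more uneven than pairs of coding genes. Both members were protein-coding in 358 pairs, with a median lower share of 18.4%. In 251 pairs 1 member was protein-coding, with a median lower share of 8.48%. There the higher count lay on the other gene in 198 pairs, or 78.9%, and the median count per kilobase of exon was 212 on that gene against 10.7 on the coding one. Of the 207 such pairs whose second gene has the biotype antisense, it had more counts in 165. Neither member was coding in 18 pairs, and 22 had a member without a matched biotype. The differences between these classes were not tested.

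The exon overlap ran from 1 to 7498 bp with a median of 332 (quartiles 130 and 664), and it lay wholly within the last exons of both genes in 303 pairs. The 134 pairs with an overlap under 100 bp had a median lower share of 19.3%, against 12.8%, 12.9% and 11.7% in the 168 pairs of 100 to 299 bp, the 248 of 300 to 999 bp and the 99 of 1000 bp or more. Their median pair counts were 235.5, 287.5, 471 and 804 in that order, so depth rose along with overlap. The longest overlap was that of TSIX and XIST, the antisense pair of X inactivation, with 7498 bp. The next were BMP2K and PAQR3, a kinase and a Golgi receptor gene, with 5646 bp, ENSG00000224113 and the ubiquitin ligase gene RFFL with 3754, and CNNM2 and NT5C2, a magnesium transport and a nucleotidase gene, with 3726. TSIX had 7765 counts in all against 171 on XIST, and ENSG00000224113 had 132 against 945 on RFFL. BMP2K had 34 counts in all against 2086 on PAQR3, and CNNM2 had 4062 against 53 on NT5C2. Among pairs with 600 counts or more, the shortest were SPTAN1, which encodes an alpha spectrin, and the dynein gene DYNC2I2, with 2 bp, and CARM1, an arginine methyltransferase gene, and YIPF2, with 10. SPTAN1 had 820 counts against 100, and CARM1 371 against 275. CRB3, a gene of the Crumbs polarity complex, had 34 against 1013 on DENND1C at 15 bp, and PPP2R1A, the scaffold subunit gene of phosphatase 2A, had 181 against 1057 on ENSG00000268015 at 17 bp. Pairs with many and with few bases in common thus both included strongly uneven ones.

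Between the groups, 103 members in 98 pairs differed. Of the 1298 members, 941 had enough counts to be tested, and edgeR's quasi-likelihood test with Benjamini-Hochberg adjustment over all 7959 genes called 36 higher and 67 lower with the SOX9 sgRNA at an adjusted p below 0.05. That is 10.9% of the members tested, where 9.01% of all genes tested were called, 2.99% higher and 6.02% lower. At 2-fold or more, 13 members were higher and 19 lower, against 1.39% and 1.72% of all genes. The groups did not overlap for 270 of the members tested, or 28.7%, against 24.5% of all genes. The median log2 fold change was 0.03 for the members and 0.01 for all genes. A member whose counts lay in 1 group only passed the filter through that group, so these shares are read only beside the shares of all genes, which passed the same filter. Without TMM factors, on library totals, the median of all genes moved from 0.01 to 0.19 and the split of members became 109 higher and 37 lower. When each library was left out in turn, 56 of the 103 calls held in all 6 fits.

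Calls lay mostly on the member with more counts. Of 620 tested members that were the higher of their pair, 93 were called, or 15.0%, against 10 of 321 lower members, or 3.12%. The median total of the tested members was 331 counts for the higher and 119 for the lower, so the 2 sets differ in depth. Both members were called in 5 pairs: in 4 they moved the same way and in EPHX1/TMEM63A they moved apart.

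**Figure D2:**
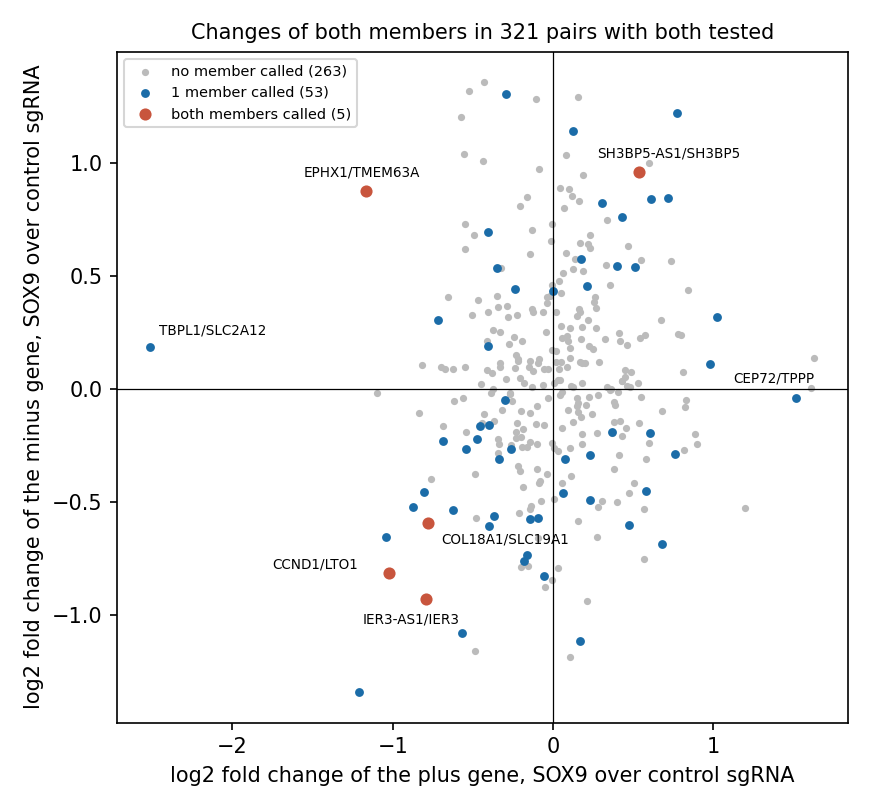
Log2 fold change of the plus gene against that of the minus gene, SOX9 sgRNA over control, in the 321 pairs with both members tested; colour gives how many members passed the adjusted p of 0.05. Neither member was called in 263 pairs, 1 in 53 and both in 5, with EPHX1/TMEM63A alone among these 5 in the upper left.

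CCND1 and LTO1 both fell. CCND1 encodes cyclin D1, which drives entry into the cell cycle with CDK4 and CDK6, and had 42, 45 and 44 counts in control against 23, 20 and 33 in SOX9 sgRNA libraries. LTO1, needed to mature an iron-sulfur protein of ribosome recycling, had 528, 558 and 501 against 319, 301 and 447. As CPM, every control library was above every SOX9 sgRNA library for both genes. The log2 fold change was -1.03 for CCND1 (SE 0.29, edgeR adjusted p = 0.0138) and -0.81 for LTO1 (SE 0.095, edgeR adjusted p = 3.31e-10). They share 498 bp of exon between 69467844 and 69469179 on chromosome 11 (GRCh37), and the ratio of the pair gave -0.22 (SE 0.30, edgeR adjusted p = 0.89). The call of CCND1 was lost without SOX9 sgRNA library 2, at -0.97.

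IER3 and the antisense gene IER3-AS1 fell as well. IER3 is an immediate early gene of the stress response, and had 63, 66 and 60 counts in control against 38, 24 and 56. IER3-AS1 had 317, 333 and 226 against 188, 160 and 246. In CPM the groups did not overlap for either gene. The changes were -0.93 for IER3 (SE 0.25, edgeR adjusted p = 0.0070) and -0.80 for IER3-AS1 (SE 0.12, edgeR adjusted p = 7.08e-07), over a shared 359 bp at chr6:30711011-30711369. Without SOX9 sgRNA library 2 the call of IER3 was lost, at -0.76.

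The third pair that fell joins COL18A1, a basement membrane collagen gene, to SLC19A1, which encodes the reduced folate carrier. SLC19A1 had 661, 733 and 605 counts in control against 448, 535 and 561 (log2 fold change -0.59, SE 0.090, edgeR adjusted p = 7.41e-07). COL18A1 had 84, 70 and 75 against 74, 31 and 52 (-0.78, SE 0.23, edgeR adjusted p = 0.0193). For COL18A1 the groups overlapped, since SOX9 sgRNA library 1 stood above control library 2. Its value was -1.17 without SOX9 sgRNA library 1, and the call was lost when control library 1 or SOX9 sgRNA library 2 or 3 was removed. It was also lost in DESeq2 (-0.78, adjusted p = 0.082) and on library totals without factors (-0.59, edgeR adjusted p = 0.088).

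SH3BP5 and SH3BP5-AS1 rose. SH3BP5-AS1 had 276, 322 and 270 counts in control against 470, 411 and 603 (log2 fold change 0.53, SE 0.10, edgeR adjusted p = 5.16e-05). SH3BP5, an exchange factor gene for RAB11, had 19, 33 and 12 against 58, 33 and 55, a change of 0.96 (SE 0.31, edgeR adjusted p = 0.0366). In CPM the groups did not overlap for either. The call of SH3BP5 was lost when library 1 or 3 of either group was removed, and with the replicate number as a block (0.99, edgeR adjusted p = 0.068). It was also lost without a filter on low counts (0.93, edgeR adjusted p = 0.096) and in DESeq2 (0.97, adjusted p = 0.11).

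**Figure D3:**
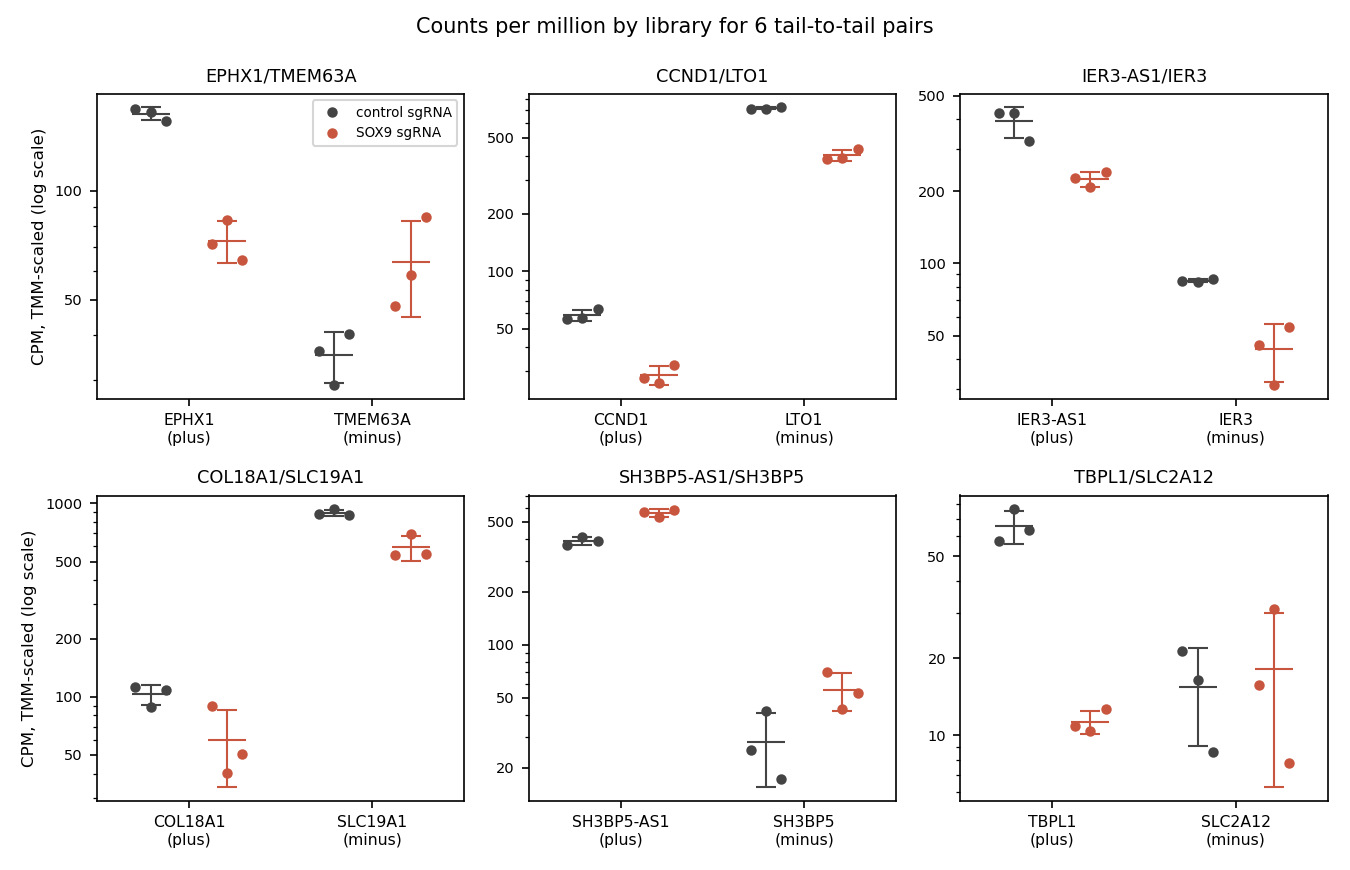
CPM of both members of 6 pairs by library on log axes, control sgRNA in grey and SOX9 sgRNA in red; horizontal bars are means and error bars SD over 3 libraries. EPHX1 fell where TMEM63A rose, both members moved the same way in the next 4 pairs, and SLC2A12 spread over the same range in both groups while TBPL1 fell.

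Among called members whose groups were apart and whose average log2 CPM was 4 or more, the 10 largest falls lay on 5 protein-coding genes and 5 others. TBPL1, which encodes a relative of the TATA-binding protein, had 43, 60 and 44 counts in control against 9, 8 and 13 (log2 fold change -2.51, SE 0.34, edgeR adjusted p = 3.61e-08). Its partner SLC2A12, a glucose transporter gene, had 16, 13 and 6 against 13, 24 and 8 (0.18, edgeR adjusted p = 0.89), although both share 1736 bp of their last exons. SRFBP1, which encodes a binding partner of serum response factor, had 45, 49 and 41 against 8, 14 and 20 (-1.92, SE 0.33, edgeR adjusted p = 9.59e-06). It shares 138 bp with LOX, the gene of the enzyme that crosslinks collagen and elastin, which had 12, 7 and 9 counts against 7, 4 and 7 and was not tested. ENSG00000247925, antisense to the focal adhesion scaffold gene NEDD9 over 53 bp, had 43, 44 and 32 against 3, 4 and 9 (-3.11, SE 0.41, edgeR adjusted p = 1.40e-08). NEDD9 had between 3 and 9 counts in each library and was not tested. ENSG00000247925 passed the filter on low counts through the control libraries, so its call and SE are a description only.

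Several falls rested on few counts. ENSG00000265359, facing the corneal keratin gene KRT12, had 14, 32 and 31 counts in control and 0 in the SOX9 sgRNA libraries, so that it was at least 30.2-fold lower, with 3 counts over the group taken as the limit that 0 allows. PCARE, a photoreceptor gene facing TOGARAM2, had 26, 17 and 30 against 1, 2 and 0, a ratio of 28.6 (exact 95% counting interval 9.42 to 142). Both went in 1 direction in every library, and the size of each change is known only within these wide limits. Both passed the filter on low counts through the control libraries, as did TM4SF18-AS1 and ABI1, named next. Other falls with few SOX9 sgRNA counts, TBPL1 and SRFBP1 included, also needed the control libraries to pass it. For all of these the calls and SEs are a description only. The other falls were TM4SF18-AS1 (-2.54, SE 0.59), facing TM4SF18, ENSG00000254204 (-2.28, SE 0.42), facing LINC02984, ENSG00000228620 (-2.09, SE 0.35), facing the potassium channel gene KCNJ4, ABI1 (-1.86, SE 0.55), an actin regulator gene facing PDSS1, and CACNA1D (-1.78, SE 0.46), a calcium channel gene facing CHDH. The call of ABI1 was lost without any one control library or SOX9 sgRNA library 2, and that of CACNA1D without control library 2, at -1.35.

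Of the 10 largest rises, 6 lay on genes that are not protein-coding. HEATR6-DT, which faces the pseudogene WFDC21P over 271 bp, had 26, 15 and 4 counts in control against 77, 67 and 80 (log2 fold change 2.09, SE 0.31, edgeR adjusted p = 5.33e-07). PDE7B-AS1 had 0, 7 and 2 against 15, 29 and 32 (2.80, SE 0.58, edgeR adjusted p = 2.18e-04), and the phosphodiesterase gene PDE7B opposite it had 5 counts in all. Without control library 2 the value of PDE7B-AS1 was 4.23. ENSG00000235978 (1.73, SE 0.31) faces ITPR1, the gene of a calcium release channel, ENSG00000244953 (1.87, SE 0.35) faces C11orf96, ENSG00000267568 (1.75, SE 0.39) faces the glycosyltransferase gene MGAT5B, and SNX10-AS1 (1.88, SE 0.47) faces SNX10, which had 0 counts. All 6 stayed past the threshold whichever library was left out. SNX10-AS1 had 6, 3 and 8 counts in control against 26, 22 and 27. It and PDE7B-AS1 passed the filter on low counts through the SOX9 sgRNA libraries, and so did PLXDC1, named below. Other rises with few control counts, such as NME7 and CEP72 below, also needed the SOX9 sgRNA libraries to pass it. For all of these the calls and SEs are a description only.

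The other 4 of the 10 largest rises lay on protein-coding genes. CEP72, a gene of centriolar satellites, had 12, 9 and 10 counts against 26, 31 and 49 (1.51, SE 0.37, edgeR adjusted p = 0.0028). Its partner TPPP, which encodes a tubulin-binding protein, had 82, 45 and 46 against 76, 44 and 79 (-0.04, edgeR adjusted p = 0.95). PLIN4, which encodes a lipid droplet coat protein, had 15, 15 and 27 against 73, 51 and 55 (1.42, SE 0.30, edgeR adjusted p = 4.73e-04). CEP72 and PLIN4 rose in every library and kept their call in all 6 fits, while PLXDC1 (1.64, SE 0.50), facing RDM1P5, and NME7 (1.31, SE 0.42), facing the sodium pump subunit gene ATP1B1, each lost it in 4. Those fits left out control library 1 or 3 and SOX9 sgRNA library 2 or 3 for PLXDC1, and control library 1 or 3 and SOX9 sgRNA library 1 or 3 for NME7, whose call the replicate block also ended (1.31, edgeR adjusted p = 0.063). Without a filter on low counts and in DESeq2 neither was called, with adjusted p of 0.081 and 0.060 for PLXDC1 and of 0.12 and 0.11 for NME7.

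Among the 6 pairs with most counts, 4 of the higher members fell by less than 2-fold. GPS2 had 4768, 5140 and 4531 counts in control against 3674, 3390 and 4355 (log2 fold change -0.57, SE 0.055, edgeR adjusted p = 3.16e-13). SH3D19 fell by 0.31 (SE 0.058, edgeR adjusted p = 5.59e-05), ATG10 by 0.30 (SE 0.051, edgeR adjusted p = 7.26e-06) and LRRC75A by 0.30 (SE 0.062, edgeR adjusted p = 3.46e-04) on the log2 scale. BEST1 gave 0.04 (edgeR adjusted p = 0.67) and MYL12-AS1 -0.11 (edgeR adjusted p = 0.25). The 4 genes that fell had between 1966 and 9802 counts in each library. On library totals without factors only GPS2 of these 4 kept its call, and the values of the others shrank to -0.13 for SH3D19 (edgeR adjusted p = 0.16), -0.12 for ATG10 (0.12) and -0.11 for LRRC75A (0.25).

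The counts of both strands were also added and tested as 1 value per pair. Of 644 pair totals tested, 38 were higher and 58 lower, where 9.63% of all 7251 genes and summed pairs were called, 3.48% higher and 6.15% lower. The median log2 fold change of the totals was 0.04. Of the 96 totals called, 12 had no member called, and 14 pairs with a called member were not called as a sum. Without SOX9 sgRNA library 3, 25 totals were higher, and on library totals 94 were higher and 32 lower.

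A changed division of counts between the strands was called in 1 pair. The change in the plus to minus ratio was fitted with edgeR over 1712 isolated pairs of any orientation whose lower member had at least 10 counts, and 0.175% of them were called. Of 572 tail-to-tail pairs tested, 1 was called and 56 had an unadjusted p under 0.05, and a limma fit of the log2 ratios called 0 of them. A further 77 pairs had too few counts on the lower member. In the 247 pairs with 600 counts or more, the mean share of the plus gene differed between the groups by a median of 1.52 percentage points, against a median SD within a group of 1.87, and by less than 5 points in 213. The median standard error of the log2 ratio in them was 0.41, and shifts well above that size also went uncalled. Examples are -1.12 in TCP11L1/CSTF3 (SE 0.35, edgeR adjusted p = 0.27) and 0.72 in COX20/ENSG00000188206 (SE 0.21, edgeR adjusted p = 0.22). The small number of calls therefore does not show that the shares were unchanged. Across all 649 pairs the mean plus shares of the 2 groups had a Spearman correlation of 0.957, over points that differ in depth.

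**Figure D4:**
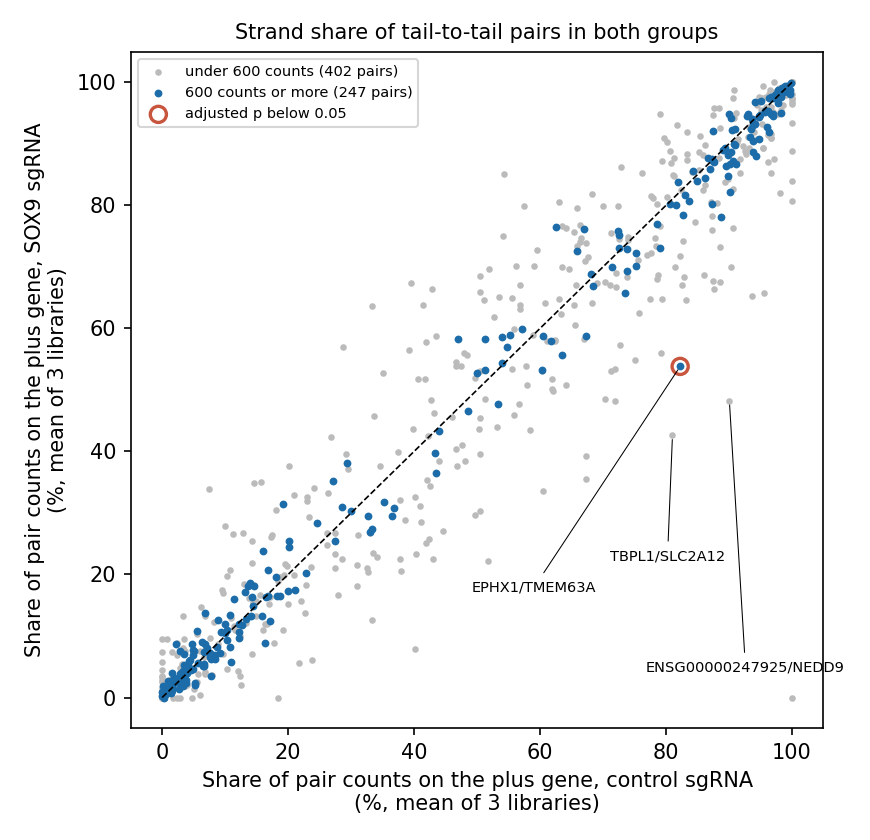
Share of a pair's counts on the plus gene in the control group against the SOX9 sgRNA group, each the mean of 3 libraries in percent; blue points have 600 counts or more, the dashed line marks equal shares and the ring an adjusted p below 0.05. Blue points lie close to the line and EPHX1/TMEM63A, at 82.2% and 53.8%, is the one ringed pair; the point at 100 and 0 is ENSG00000265359/KRT12, which had 1 count over the SOX9 sgRNA libraries.

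EPHX1 and TMEM63A, whose ends are printed above, share 24 bp of their last exons at chr1:226033237-226033260 on GRCh37. EPHX1 encodes microsomal epoxide hydrolase, which detoxifies reactive epoxides, and had 126, 130 and 108 counts in control against 59, 64 and 66. TMEM63A encodes a mechanically gated ion channel, and had 27, 23 and 28 against 40, 45 and 87. EPHX1 was lower in every SOX9 sgRNA library and TMEM63A higher, so the groups did not overlap for either gene. EPHX1 went from 163 ± 6.75 to 72.8 ± 9.59 CPM (SD, n = 3 each; log2 fold change -1.17, SE 0.18, edgeR adjusted p = 1.63e-06). The call of EPHX1 held whichever library was left out. TMEM63A went from 35.2 ± 5.58 to 63.8 ± 18.8 CPM (0.87, SE 0.28, edgeR adjusted p = 0.036). Its call was lost when control library 1 or 2 or SOX9 sgRNA library 2 or 3 was removed (values from 0.60 to 1.04 over the 6 fits), with the replicate block (0.84, edgeR adjusted p = 0.063), without a filter on low counts (0.84, edgeR adjusted p = 0.11) and in DESeq2 (0.87, adjusted p = 0.11). The share of EPHX1 fell from 82.2% ± 2.78 to 53.8% ± 9.26, the largest difference among pairs with 600 counts or more, and the log2 ratio changed by -2.02 (SE 0.40, edgeR adjusted p = 0.0236). The ratio lost its call with control library 1 (-2.02) or 2 (-1.89) or SOX9 sgRNA library 1 (-2.18) or 3 (-1.68) removed, and in the limma fit (-1.98, adjusted p = 0.36). The sum of both genes gave -0.53 (SE 0.15, edgeR adjusted p = 0.0142) and lost its call when library 1 of either group was removed and on library totals (-0.35, edgeR adjusted p = 0.13).

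The 7 pairs with the next smallest p gave large ratios that did not pass. ENSG00000247925/NEDD9 changed from a plus share of 90.1% ± 1.32 to 48.2% ± 9.94 (log2 ratio -3.25, SE 0.84, edgeR adjusted p = 0.097), and TBPL1/SLC2A12 from 81.0% ± 7.63 to 42.6% ± 18.5 (-2.61, SE 0.68, edgeR adjusted p = 0.10). Both passed when at least 30 counts were asked of the lower member (adjusted p = 0.034 and 0.030). In TPD52L1/HDDC2 the plus gene had 1 count in control and 13 in SOX9 sgRNA libraries (3.74, SE 1.10, edgeR adjusted p = 0.11), while HDDC2, a nucleotidase gene, fell from 422 ± 18.4 to 265 ± 10.7 CPM (log2 fold change -0.67, edgeR adjusted p = 4.66e-06). The ratio of COX20, an assembly factor gene of cytochrome c oxidase, to ENSG00000188206 gave 0.72 (SE 0.21, edgeR adjusted p = 0.22), with a plus share of 16% ± 0.690 against 23.8% ± 0.399. TCP11L1/CSTF3 gave -1.12 (SE 0.35, edgeR adjusted p = 0.27), PCAT7/FBP2 -3.56 (SE 1.21, edgeR adjusted p = 0.27) and CDK5RAP3/ENSG00000264701 2.12 (SE 0.71, edgeR adjusted p = 0.35).

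Other isolated pairs at the same count minimum gave shares of the same order. In 616 head-to-head pairs, which overlap at their 5′ ends, 12.1% of the 800 members tested were called, 19 higher and 78 lower. In 739 nested pairs, in which the outer ends of 1 gene lie within the other, 12.4% of 966 were called, 38 higher and 82 lower, against the 10.9% of 941 in tail-to-tail pairs. The median lower share was 11.7% in head-to-head, 10.1% in nested and 14.1% in tail-to-tail pairs, and the median overlap 197.5, 268 and 332 bp. A changed ratio was called in 1 of 520, 1 of 620 and 1 of 572 pairs. These differences between orientations were not tested.

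Genes that make 3′ ends and genes that handle double-stranded RNA were read as lists. Of 30 genes of cleavage, polyadenylation and termination, 25 were tested and 0 were called by edgeR in either direction, where 9.01% of all genes were called, with a median log2 fold change of -0.09. At an unadjusted p under 0.05 there were 3, and DESeq2 called 0. Of the list, 3 are themselves members of tail-to-tail pairs, and 15 have an exon opposite another gene. CPSF1, a subunit gene of the factor that reads the hexamer, had 33, 35 and 40 counts in control against 72, 75 and 53 (0.68, edgeR adjusted p = 0.089). CSTF3, a subunit gene of the cleavage stimulation factor and the partner of TCP11L1, had 40, 24 and 24 against 42, 57 and 69 (0.69, edgeR adjusted p = 0.11), and SCAF4, a termination factor gene, gave -0.59 (edgeR adjusted p = 0.22). Of 28 genes that bind, edit, cut or sense double-stranded RNA, 14 were tested and 1 was called, against the same 9.01% of all genes, so the count of either list is too small to set it apart. ADAR, which encodes the enzyme that deaminates adenosine in double-stranded RNA, had 58, 72 and 64 counts against 119, 102 and 134, all 3 above the controls (0.64, SE 0.19, edgeR adjusted p = 0.0165). PRKRA gave 0.97 (edgeR adjusted p = 0.13) and STAU1 -0.64 (edgeR adjusted p = 0.24), and TLR3, OAS1 and ZBP1 had 0 counts.

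At the count minimum of 60, the pairs just inside were PPP3CC/ENSG00000251034 with 60 counts and CCDC150/GTF3C3 with 61. Just outside lay GALNT12/ENSG00000267026 and ZNF540/ZFP30 with 58 each. With a minimum of 200, which left 466 pairs, 30 members were higher and 58 lower. Over all 7959 genes tested, 2.99% were called higher and 6.02% lower, and these member counts are not read as a result about the pairs.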

How the data were processed

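The deposited tables hold whole-number fragment counts per gene for each library, not normalized by the authors. STAR 2.7.10a, Subread 1.6.2 and GRCh37 are named in the submitters' processing notes. Per the file headers, featureCounts counted over exons of Ensembl GRCh37 release 75 with strand setting 1, and a fragment could count for every gene it overlapped. Per the labels' protocols, RNA came from RNeasy columns and libraries from a stranded SMARTer Pico kit. A fragment in an overlap counts by its strand, and 11223 genes have an exon opposite another gene.

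Pairs were found from the exon coordinates of the tables (GRCh37). Symbols matched 38994 identifiers. Biotypes (51789 identifiers) and transcript ends came from GENCODE 29 on GRCh38, from which no GRCh37 coordinate was taken. The tests used edgeR 4.0.16 in R 4.3.3: filterByExpr, TMM factors, robust quasi-likelihood fit, Benjamini-Hochberg adjustment over all genes tested. CPM is scaled by the TMM factors and given as mean ± SD, and a log2 fold change (prior count 2) is SOX9 sgRNA over control with its standard error (SE). For pair totals, both rows of each pair were summed and all rows refitted. For strand ratios, both strands of 1712 pairs were fitted together, with a strand by group term. Procedures were tested on simulated counts. Over the genes, libraries gave a chi-square of 1.92 to 2.32 per degree of freedom within groups, above the 1 of pure sampling, and of 3.85 to 4.84 between groups. Intervals and limits cover counting error only.

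Named were the 6 pairs with most counts, up to 10 per direction with the largest change of a called member (average log2 CPM at least 4, groups apart), the 8 with the smallest p for the ratio, the 4 longest and 4 shortest overlaps (at least 600 counts), pairs with both members called, and those at the count minimum. The pairs and lists were chosen with earlier results of these data known. Alternatives were library totals, RLE size factors, other filters, DESeq2 1.42.0, limma 3.58.1, a replicate block, other pair limits and leaving out each library.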

Additional observations from a re-analysis of the deposited data

How the results depend on the processing

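No called value reversed under the alternatives run. Over these, 398 values of members were unchanged in direction and call and 47 lost the call; for totals these were 326 and 15, and for ratios 375 and 5, with 2 gained. On library totals without factors, 625 genes were higher and 249 lower, 109 members higher and 37 lower, and 94 totals higher and 32 lower. This scaling moved the median of all genes. DESeq2 called 130 genes higher and an edgeR fit without a filter 151; the cause was not tested. Leaving out each library gave 161 to 207 genes higher and 364 to 430 lower, 26 to 39 members higher and 51 to 58 lower, 25 to 34 totals higher (25 without SOX9 sgRNA library 3) and 45 to 52 lower, and 0 to 1 changed ratios (0 without control library 1 or 2 or SOX9 sgRNA library 1 or 3). The count of changed ratios was 3 when the lower member needed 30 counts, with fewer pairs tested, and 0 in limma. It was 0 with an overlap of at least 50 bp and 0 without members sharing an exon with a gene on their own strand, since EPHX1/TMEM63A is then left out.

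Same-numbered libraries did not deviate together (correlations -0.0029, 0.0193 and -0.0109 over 7959 genes), so the numbers were not taken to pair them. With the replicate block, 175 genes were higher and 399 lower, 31 members higher and 55 lower, 35 totals higher and 54 lower, and 1 ratio was called (-2.00, adjusted p = 0.0062). Over the fits that left out a library, the log2 fold change ran from -5.58 to -4.03 for PCARE and from 1.67 to 2.73 for HEATR6-DT. Of the 103 member calls, 86 held with the block, 74 in DESeq2 and 73 on library totals. At these depths a log2 ratio rests on the lower member, often with few counts.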
